A study of Homo sapiens with 4 samples.

Results

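The genes described here are the mouse inflammatory caspases Casp1, Casp4 and Casp12, the apoptosis inhibitors Birc2 and Birc3, and Trp53inp1. They were taken by gene symbol, 6 of the 23698 loci in each table, and each symbol had 1 locus. RNA was sequenced from 4 tumours raised by injecting MDA-MB-231, a line of human breast cancer cells that lack the hormone receptors and HER2, under the skin of Balb/c nude mice, which have no thymus. The groups were caspase-3 efficient untreated, caspase-3 efficient with docetaxel, caspase-3 inhibited untreated and caspase-3 inhibited with docetaxel. For the inhibited groups the graft cells had been kept in culture with Z-DEVD-FMK, a peptide that blocks caspase-3, and docetaxel, a taxane that stabilises microtubules, was given at 15 mg/kg to mice whose tumours had reached 12 mm². Each group was 1 library, so no difference below has a replicate check and none carries a p-value. The tables list mouse loci in FPKM (fragments scaled by transcript length and by the mapped fragments of the library) with a lower and an upper bound. They describe the host tissue of the graft plus any human fragments that aligned to mouse sequence.

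Caspases are cysteine proteases. Caspase-1 is activated in inflammasomes, where it matures interleukin-1 family cytokines, and the mouse caspase encoded by Casp4 senses bacterial lipopolysaccharide in the cytosol. Both can drive pyroptosis, a lytic cell death, while the caspase encoded by Casp12 has been placed at the endoplasmic reticulum. Birc2 and Birc3 encode cellular inhibitor of apoptosis proteins, ubiquitin ligases that hold tumour necrosis factor receptor signalling in its survival mode. Trp53inp1 encodes a p53-induced stress protein that acts in cell death and autophagy.

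In the build mm9, Casp1 spans 5298517 to 5307281 on chromosome 9, Casp4 5308860 to 5336791 and Casp12 5345476 to 5373034. The gap between Casp1 and Casp4 is 1.58 kb and that between Casp4 and Casp12 8.68 kb. Birc2 spans 7818226 to 7835255 and Birc3 7848701 to 7873170 on the same chromosome, so the Birc pair begins 2445 kb beyond the end of Casp12. Trp53inp1 spans 11083588 to 11101524 on chromosome 4. Values in FPKM are per whole locus, and exons or isoforms were not resolved.

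The FPKM values were converted back to fragments where they could be. At loci whose upper bound was 5 times the FPKM in a pair of libraries, FPKM ratios gave depths of 1.32, 0.891 and 0.667 for the efficient docetaxel, inhibited untreated and inhibited docetaxel libraries, relative to the efficient untreated library. The interquartile ranges of these ratios were 1.307 to 1.324 over 36 loci, 0.891 to 0.891 over 36 loci and 0.667 to 0.667 over 21 loci. After multiplication by depth, all 24 member values lay within 0.118 of a whole number of units, and 1 unit is taken as 1 fragment. The multiples alone do not settle this: if 1 unit were several fragments, all fragment numbers would be larger and all intervals narrower. Of 1121 loci above 0 in the 3 libraries other than efficient docetaxel, 81.4% came out whole within 0.01, with the unit chosen in the same way. The members rested on few fragments: 1 to 54 per library wherever a value was above 0. The intervals given for ratios are exact 95% intervals on these fragments and cover counting error only.

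Casp1 was the most abundant of the 6 genes in every library. It was at 45.6 FPKM (bounds 27.6 to 63.2, 30 fragments) in the efficient untreated library, 62.4 (40.3 to 79.6, 54 fragments) in the efficient docetaxel library, 29.0 (16.3 to 41.4, 17 fragments) in the inhibited untreated library and 41.0 (21.7 to 59.2, 18 fragments) in the inhibited docetaxel library. The efficient docetaxel library was the high one and the inhibited untreated library the low one, and their bounds met only at the edge.

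Casp4 was at 24.3 FPKM (12.5 to 34.8, 15 fragments), 47.8 (29.1 to 65.4, 39 fragments), 23.6 (10.9 to 35.9, 13 fragments) and 26.7 (12.5 to 39.6, 11 fragments) in the same order of libraries. The efficient docetaxel library was the high one, and the other 3 lay close to each other. Casp12 was at 4.97 FPKM (1.53 to 8.41, 6 fragments), 12.6 (7.42 to 17.7, 20 fragments), 7.45 (2.58 to 12.0, 8 fragments) and 6.22 (1.15 to 10.3, 5 fragments). Again the efficient docetaxel library was highest, with bounds that overlapped those of the other 3.

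Birc2 was at 1.36 FPKM (0 to 3.17, 2 fragments), 6.69 (3.32 to 9.95, 13 fragments), 1.52 (0 to 3.56, 2 fragments) and 1.02 (0 to 2.85, 1 fragment). Its lower bound in the efficient docetaxel library lay above the upper bounds of the efficient untreated and inhibited docetaxel libraries, and below that of the inhibited untreated library. Birc3 was at 0.764 FPKM (0 to 2.13, 1 fragment), 2.90 (0.529 to 4.76, 5 fragments) and 1.71 (0 to 3.98, 2 fragments), and was listed at 0 in the inhibited docetaxel library. No level is read from that 0, because the actin gene Actb, which every cell uses, was also listed at 0 in all 4 libraries.

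Trp53inp1 was at 0.383 FPKM (0 to 1.54, 1 fragment), 5.50 (2.89 to 8.10, 19 fragments), 2.15 (0 to 4.74, 5 fragments) and 1.73 (0 to 4.61, 3 fragments). The efficient libraries held both its lowest and its highest value, and their bounds did not overlap. Each of the 6 genes was highest in the efficient docetaxel library, Birc3 among the 3 libraries with a value. Of 2293 loci that reached 1 FPKM, 32.1% were highest there. When each gene's libraries were put in order of level, the bounds of all 18 neighbouring pairs overlapped, and of all 36 pairs of libraries 4 (11.1%) did not overlap, 1 of them Birc3 against its listed 0. Where both values were above 0, 3 of 33 pairs (9.09%) did not overlap. Over all loci at 1 FPKM in a library or higher, 4.89% of all 13794 pairs did not overlap. Of their 7543 pairs with both values above 0, 4.92% did not.

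**Figure D1:**
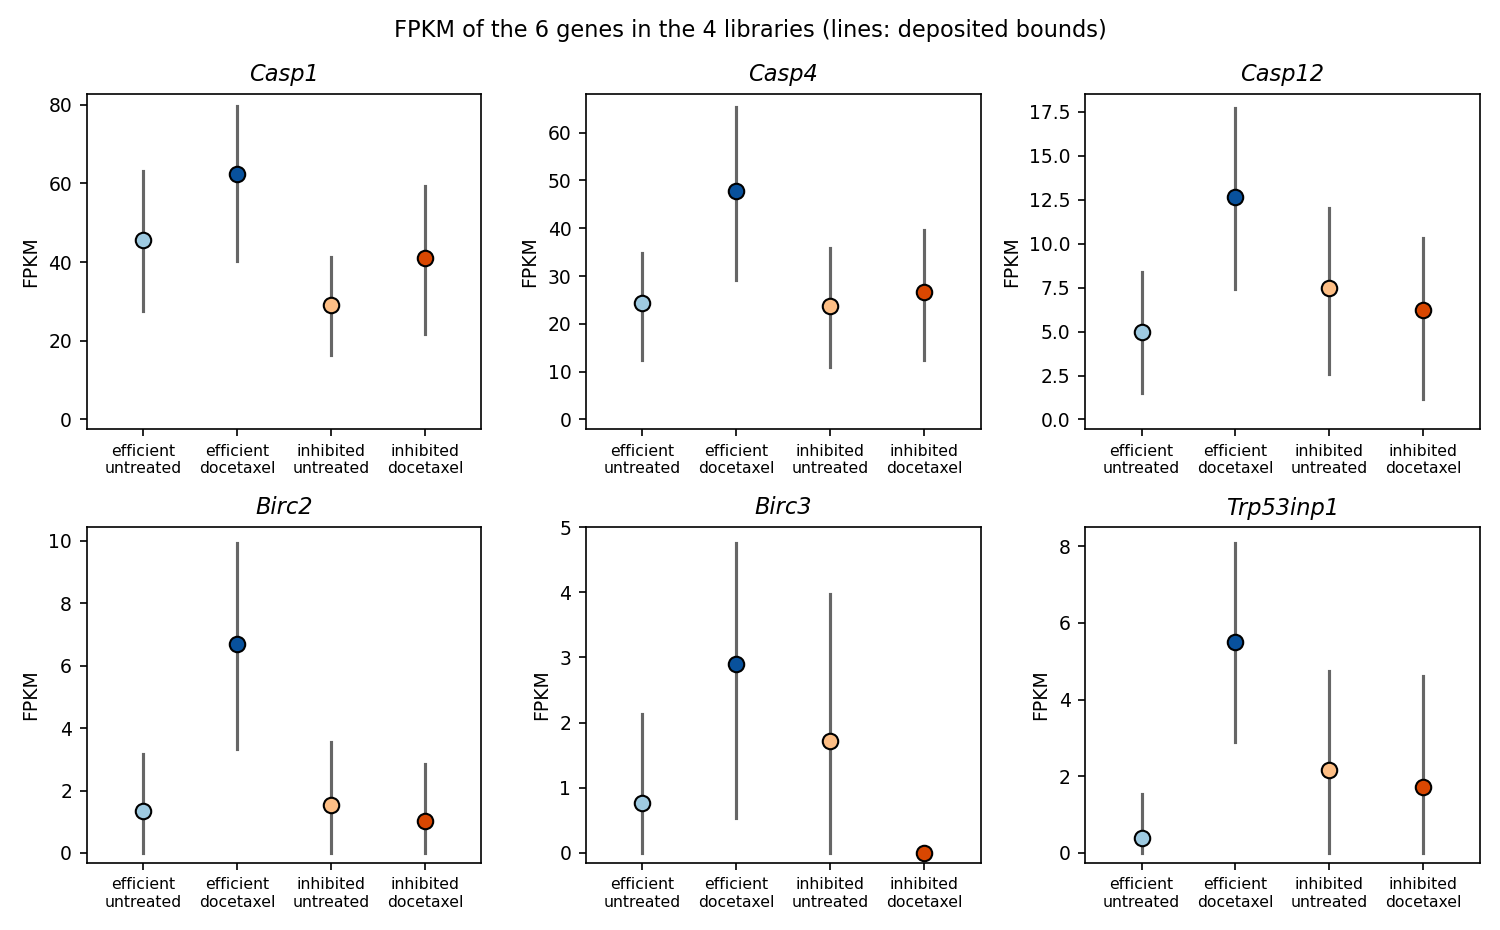
FPKM (vertical axis, from 0, with its own range per gene) of the 6 genes in the 4 libraries. Points are the deposited FPKM of 1 library each and lines the deposited bounds. All 6 genes have their highest point in the efficient docetaxel library, at 62.4 FPKM for Casp1 and 5.50 for Trp53inp1, and most of the lines overlap.

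Docetaxel was first compared with no treatment in caspase-3 efficient tumours. All 6 genes were at a higher value in the docetaxel library, and Birc2 and Trp53inp1 met the rule used for a difference. That rule asked for at least a 2-fold difference in FPKM + 1, deposited bounds that did not overlap, the status OK in both libraries and 5 FPKM or more in at least 1. Of the 5 members that reached 5 FPKM, 2 met it as higher and 0 as lower. Casp12, Birc2 and Trp53inp1 reached 5 FPKM there only with docetaxel, so they could not have met the rule as lower. Over all 667 loci compared, 8.1% met it as higher and 0.9% as lower. The half-width of the bounds was 301% of the value for Trp53inp1 without docetaxel, so its starting level is poorly known.

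Trp53inp1 was higher by 2.23 on the log2(FPKM + 1) scale. Its FPKM ratio was 14.3, with a counting interval of 2.29 to 599 from 19 fragments against 1. Birc2 was higher by 1.71 on that scale, with an FPKM ratio of 4.93 (1.12 to 44.998). The Birc2 call was lost after scaling the libraries to equal medians, where the log2 difference was 1.52. Both calls were lost with quantile normalization, where Birc2 differed by 1.57 and Trp53inp1 by 2.24, and both with a pseudocount of 5, where they differed by 0.88 and 0.96.

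The caspases showed smaller differences and none met the rule, although the counting interval of Casp4 lay above 1. The FPKM ratio was 1.37 (0.858 to 2.21) for Casp1, 1.97 (1.06 to 3.85) for Casp4 and 2.54 (0.979 to 7.69) for Casp12. On the log2(FPKM + 1) scale these were differences of 0.44, 0.95 and 1.19. The difference of Casp1 fell to 0.20 after median scaling and 0.00 with quantile normalization, and that of Casp4 to 0.71 and 0.47. Birc3 had a ratio of 3.802 (0.424 to 179) from 5 fragments against 1 and did not reach 5 FPKM. The median log2 difference of the 6 members was 1.17, and that of all 667 loci 0.34. Of those loci 65.7% were higher with docetaxel. Median scaling moved the median of all loci from 0.34 to 0.05 in efficient and from 0.37 to -0.08 in inhibited tumours. Median scaling changed the split of all loci that met the rule from 54 higher and 6 lower to 39 and 14, and quantile normalization to 36 and 17.

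The same comparison in caspase-3 inhibited tumours named none of the 6 genes. The members that reached 5 FPKM were Casp1, Casp4 and Casp12. Of these 3, 0 met the rule in either direction, where 3.81% of 630 loci were higher and 1.75% lower. Birc2, Birc3 and Trp53inp1 were under 5 FPKM in both libraries, so they could not have met it. With no FPKM minimum, 0 of the 6 genes met it in either direction. Casp1 had an FPKM ratio of 1.41 (0.688 to 2.92) and Casp4 one of 1.13 (0.459 to 2.73). Casp12 was at a ratio of 0.835 (0.215 to 2.90), Birc2 at 0.668 (0.0113 to 12.8) and Trp53inp1 at 0.802 (0.124 to 4.12). All 5 intervals included 1. The log2 difference of Casp4 was 0.17 as deposited and turned to -0.23 after median scaling and -0.20 with quantile normalization. The median of the 6 members was -0.22 and that of all loci 0.37, and without Birc3, which was against a listed 0, the members' median was -0.21. The split of all loci that met the rule went from 24 higher and 11 lower to 12 and 19 after median scaling and 15 and 18 after quantile normalization.

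**Figure D2:**
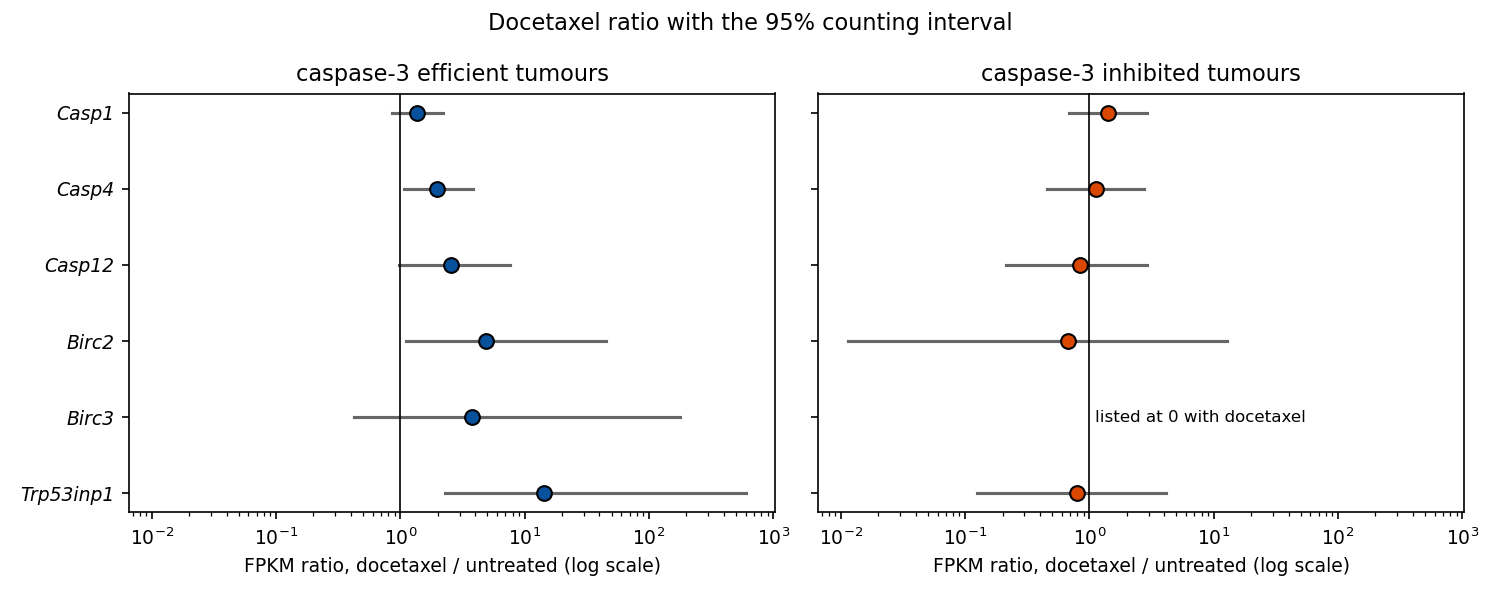
FPKM with docetaxel divided by FPKM without (horizontal log axis) for the 6 genes, in caspase-3 efficient tumours on the left and inhibited tumours on the right. Points are ratios of 1 library to 1 library, lines are exact 95% counting intervals, and the vertical line marks a ratio of 1. The efficient ratios run from 1.37 for Casp1 to 14.3 for Trp53inp1. The inhibited ratios run from 0.668 for Birc2 to 1.41 for Casp1, with Birc3 listed at 0.

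The docetaxel differences were then set against each other between the caspase-3 states. Casp1 differed by nearly the same amount in both, by 0.44 in efficient and 0.49 in inhibited tumours, and the ratio of its docetaxel ratios, inhibited over efficient, was 1.03 (0.433 to 2.498). The difference between these, 0.04, turned to -0.12 after median scaling. Trp53inp1 differed most among the 5 genes with a value in all 4 libraries. Its docetaxel difference was 2.23 in efficient and -0.21 in inhibited tumours, a difference of -2.44. The ratio of its ratios was 0.0559 (0.00112 to 0.862), an interval under 1 only if the fragment numbers hold. Read as 2 Poisson standard deviations, the deposited bounds of Trp53inp1 give fewer fragments in the low libraries. They give 0.442 in place of 1 (efficient untreated), 2.78 in place of 5 (inhibited untreated) and 1.44 in place of 3 (inhibited docetaxel). No interval was computed on those. Birc2 was at -2.03 and a ratio of ratios of 0.135 (0.00214 to 4.53), an interval that includes 1. For Casp4 the ratio of ratios was 0.575 (0.188 to 1.75) and for Casp12 0.329 (0.0611 to 1.72). A difference of -2 or lower on the log2 scale was reached by 2 of the 5 members at 5 FPKM or more in a library, Birc2 and Trp53inp1, and by 9.51% of 778 loci. A difference of 2 or higher was reached by 0 members and by 7.2% of those loci. Birc2 and Trp53inp1 reached 5 FPKM only in the efficient docetaxel library. The minimum thus favoured a negative difference for these 2 genes, so their count beside 9.51% is no test.

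Caspase-3 inhibition was compared in untreated tumours, where none of the 6 genes met the rule. Of the 3 members that reached 5 FPKM, Casp1, Casp4 and Casp12, 0 met it, against 2.51% higher and 3.35% lower of 597 loci. Birc2, Birc3 and Trp53inp1 were under 5 FPKM in both libraries, so they could not have met it. The inhibited over efficient FPKM ratio was 0.636 (0.329 to 1.19) for Casp1, 0.973 (0.426 to 2.19) for Casp4 and 1.497 (0.455 to 5.23) for Casp12. It was 1.12 (0.0814 to 15.5) for Birc2, 2.25 (0.117 to 132) for Birc3 and 5.62 (0.628 to 266) for Trp53inp1. The widest of these intervals rest on 1 fragment in the efficient library. The value of Casp4 was nearly equal in both libraries, yet its interval leaves room for a 2-fold difference in either direction. Its log2 difference of -0.04 turned to 0.07 after median scaling and 0.02 with quantile normalization.

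Under docetaxel the 5 genes with a value in both libraries were at a lower value in the inhibited than in the efficient library. This comparison shares the efficient docetaxel library with the first. Each of these genes was highest in that library, so the direction follows from that order. Of all 701 loci compared, 52.9% were at a lower value in the inhibited library. Of the 5 members that reached 5 FPKM, 1 met the rule as lower, Birc2, and 0 as higher. By the same rule 9.27% of 701 loci were lower and 3.99% higher. Birc2 and Trp53inp1 were under 5 FPKM in the inhibited library, so they could not have met it as higher. Birc2 was lower by 1.93 on the log2 scale, and the efficient over inhibited ratio was 6.58 (0.987 to 279) from 13 fragments against 1. This counting interval includes 1 although the deposited bounds do not overlap. The efficient over inhibited ratio was 3.18 (0.943 to 16.9) for Trp53inp1, 2.03 (0.737 to 6.90) for Casp12, 1.79 (0.9003 to 3.88) for Casp4 and 1.52 (0.876 to 2.75) for Casp1. Birc3 had 2.90 FPKM in efficient tumours against a listed 0. The median log2 difference was -0.92 over the 5 genes, -1.08 with Birc3 at its listed 0, and -0.05 over all loci.

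Ratios between genes within a library do not change when the whole library is scaled by a single factor, as in median scaling. Quantile normalization can change them. The summed FPKM of Casp1, Casp4 and Casp12 was 74.9, 123, 60.1 and 74.0 in the order efficient untreated, efficient docetaxel, inhibited untreated and inhibited docetaxel. Casp1 made up 60.9%, 50.8%, 48.3% and 55.5% of it, and Casp12 6.64%, 10.3%, 12.4% and 8.40%. The Casp4 level was 0.533 of the Casp1 level (0.266 to 1.02) in the efficient untreated library and between 0.651 and 0.815 in the others. The counting intervals of this ratio overlapped in all 4 libraries.

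Birc2 was at 0.0297 of Casp1 (0.00344 to 0.117) in the efficient untreated library and 0.107 (0.0538 to 0.199) in the efficient docetaxel library. In inhibited tumours it was at 0.0525 (0.00588 to 0.221) untreated and 0.0248 (0.000595 to 0.157) with docetaxel. Trp53inp1 was at 0.00840 of Casp1 (0.000206 to 0.0505) and 0.0881 (0.0496 to 0.152) in the efficient libraries. In the inhibited libraries it was at 0.0743 (0.0214 to 0.209) and 0.0421 (0.00793 to 0.144). The efficient untreated library was thus the low one for Trp53inp1, and its interval met the lower end of the efficient docetaxel interval with little overlap.

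**Figure D3:**
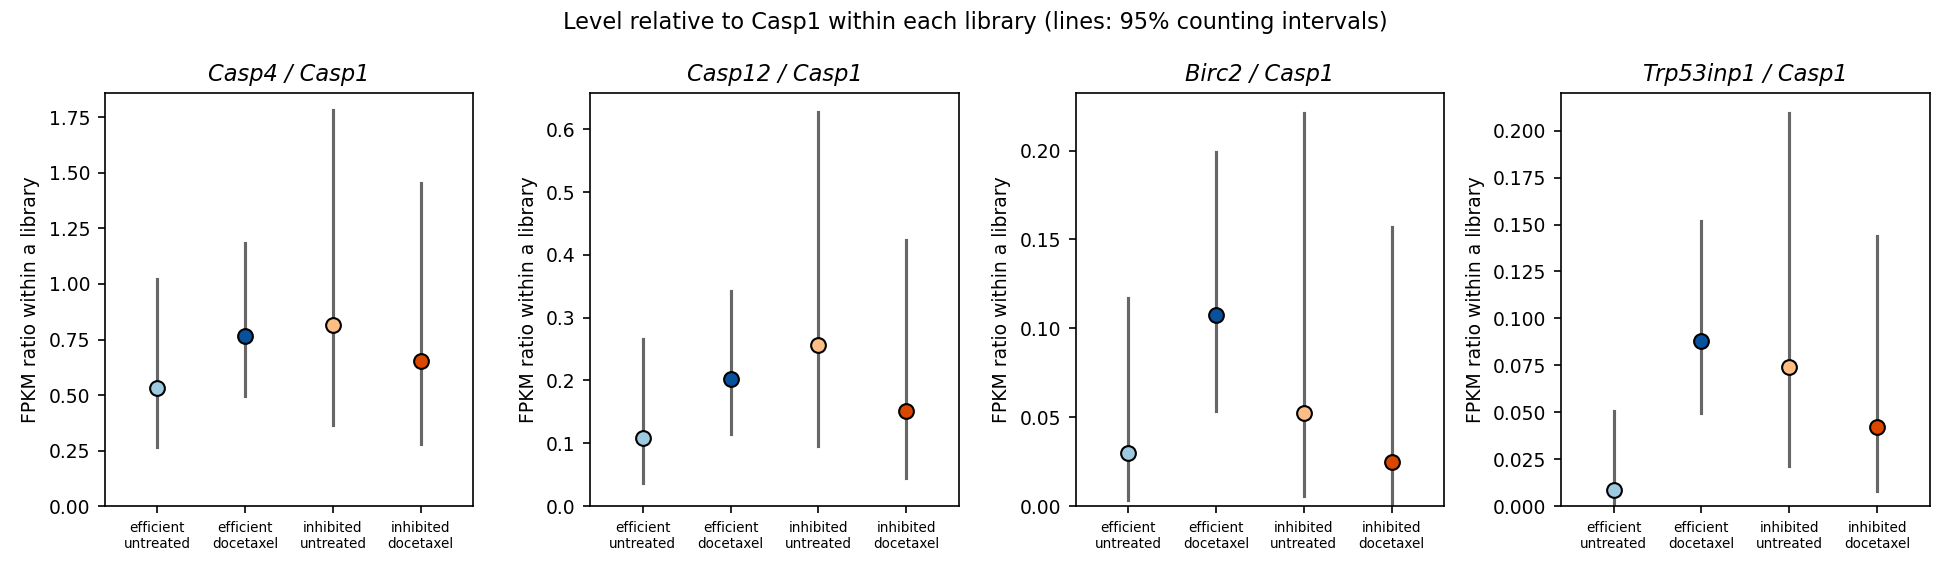
FPKM of Casp4, Casp12, Birc2 and Trp53inp1 divided by the FPKM of Casp1 in the same library (vertical axis, from 0, with its own range per gene). Points are single libraries and lines exact 95% counting intervals. Trp53inp1 is at 0.00840 in the efficient untreated library and from 0.0421 to 0.0881 in the other 3, while the intervals of Casp4 overlap throughout.

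Other genes of the same pathways could hardly be read. The initiator caspase genes Casp8 and Casp9 were listed at 0 in all 4 libraries. Over 8 lists of caspases, inhibitors of apoptosis, inflammasome, p53, tumour necrosis factor and NF-kB, BCL2, apoptosome and autophagy genes, 89 of the 111 loci other than the members were at 0 in all 4 libraries. That is close to the share over all loci, 19773 of 23698. Of the 111, 14 reached 1 FPKM in a library and 2 reached 5 FPKM, Rela and Bik. Rela, encoding the p65 subunit of NF-kB, was at 19.9, 19.96, 8.92 and 14.3 FPKM in the same order and met the rule in none of the 4 comparisons. Bik, encoding a pro-apoptotic BCL2 family protein, was at 2.69 and 10.7 FPKM in the efficient libraries and listed at 0 in both inhibited ones. It met the rule as lower in the inhibited docetaxel library, against that listed 0. Among p53 targets Gdf15 was at 2.26 FPKM in the efficient untreated library and listed at 0 in the others, and the p53 gene Trp53 and its target Cdkn1a were listed at 0 in all 4.

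Of the remaining inhibitor of apoptosis genes Naip1 was at 0.386, 0, 0.434 and 2.90 FPKM, and Xiap and Birc5 were listed at 0 in all 4 libraries. Gsdmd, encoding the pore-forming substrate of inflammatory caspases, was at 1.27 FPKM in the efficient untreated library and listed at 0 in the other 3. Sqstm1, which encodes an autophagy receptor, was at 4.43, 0.850, 1.24 and 1.66 FPKM and did not reach 5. Tnfrsf1b, a tumour necrosis factor receptor gene, was at 0.423, 1.59, 0.475 and 1.27 FPKM. Of these 8 lists, none other than the BCL2 list had a further member that met the rule in any of the 4 comparisons, and only those of NF-kB and BCL2 genes had a further member at 5 FPKM or more.

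The members lie where many neighbouring loci had values. On chromosome 9, 13 of 32 loci that start within 2 Mb of a member (40.6%) were above 0 in at least 3 libraries, and on chromosome 4 15 of 26 (57.7%), against 6.73% of all loci. Tmem123, which starts 54.1 kb from Birc2, was at 14.9, 21.0, 5.03 and 12.3 FPKM and met the rule as lower in the inhibited untreated library. Yap1, encoding a Hippo pathway coactivator and starting 83.3 kb from Birc3, was at 3.05, 3.07, 5.14 and 1.53 FPKM. In efficient tumours 10 of 10 chromosome 9 neighbours that reached 5 FPKM were at a higher value with docetaxel, as were 7 of 8 on chromosome 4, without a microRNA locus whose value exceeds its own upper bound. Their median log2 differences were 0.98 and 0.64, and 2 and 1 met the rule as higher, the proteases Mmp12 and Mmp13 and the gene Plekhf2. Of all 667 loci compared in efficient tumours, 65.7% were at a higher value, with a median of 0.34, and 8.1% met the rule as higher.

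In inhibited tumours 5 of 7 chromosome 9 neighbours and 4 of 6 on chromosome 4 were at a higher value with docetaxel, with medians of 0.77 and 0.63. Of all 630 loci compared in inhibited tumours, 68.1% were at a higher value, with a median of 0.37, and 3.81% met the rule as higher. The protease gene Mmp3, at 18.2 FPKM untreated and 97.3 with docetaxel, met the rule as higher there. Plekhf2, 168 kb from Trp53inp1, was at 2.93, 10.03, 2.47 and 9.90 FPKM, so it was at a higher value with docetaxel in both caspase-3 states. Ints8, an Integrator subunit gene 42.7 kb from Trp53inp1, was at 5.22, 10.9, 10.4 and 5.57 FPKM. Of the neighbours at 5 FPKM or more, 8 of 11 on chromosome 9 and, without that microRNA locus, 6 of 8 on chromosome 4 were highest in the efficient docetaxel library, against 36.8% of 775 such loci in all.

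**Figure D4:**
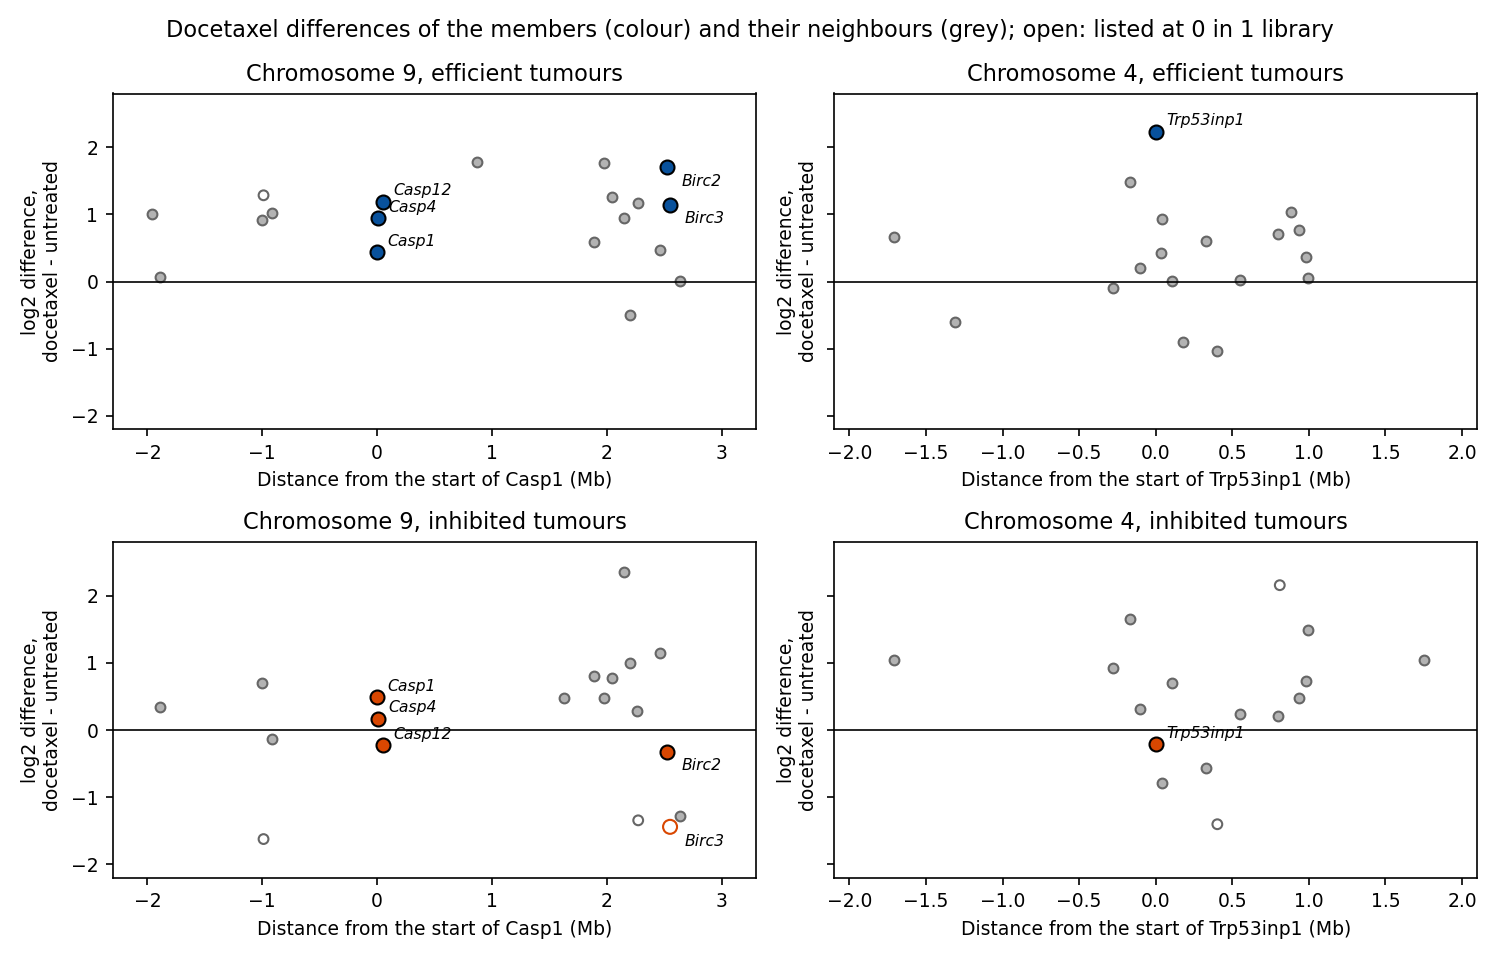
Difference of log2(FPKM + 1), docetaxel minus untreated (vertical axis), against the distance in Mb from the start of Casp1 on chromosome 9 (left) and of Trp53inp1 on chromosome 4 (right), in efficient (top) and inhibited tumours (bottom). Coloured points are the 6 genes and grey points loci within 2 Mb at 1 FPKM or more in 1 of the libraries compared, without microRNA loci. Open points are listed at 0 in 1 of them. In efficient tumours Trp53inp1 lies at 2.23 and Birc2 at 1.71.

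Loci with the profile most like each member over the 4 libraries were taken among 589 candidates. These had the status OK and a value above 0 in all 4, reached 5 FPKM in at least 1 and spanned 500 bp or more, and predicted genes, clone names, small RNA and receptor families were left out. Likeness was the Euclidean distance between log2(FPKM + 1) values centred on their own mean, and 4 libraries give a weak measure. For Casp1 these were Adrbk1, Ube2h and Lyg2 at distances of 0.13, 0.16 and 0.17. For Casp4 they were Atp6v1h, Dbnl and Gstp1 at 0.09, 0.09 and 0.14, and Dbnl was at 23.1, 42.3, 22.8 and 24.96 FPKM. Casp12 was nearest to Etv3 at 0.13, Otud6b at 0.20 and Tspan12 at 0.21. Birc2 was nearest to Chchd7 at 0.29, Decr1 at 0.36 and Fastk at 0.54. For Trp53inp1 the nearest were Chka, Cnn2 and Smo at 0.59, 0.62 and 0.64, and Chka was at 3.36, 11.5, 8.50 and 5.05 FPKM. Birc3 was left out because of its listed 0.

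Some markers of other cells were also highest in the efficient docetaxel library. The summed level of the erythroid list was 208, 1767, 935 and 427 FPKM, with 4 of 9 loci above 0, and that of the adipocyte list 12.6, 429, 11.6 and 12.4, with 3 of 8 above 0. The adipocyte value came mostly from Retn, the resistin gene, at 417 FPKM, while Cidea was at 2.07, 9.76, 11.6 and 12.4. The keratinocyte and epithelial list was also highest in the efficient docetaxel library, at 5.71 FPKM from Cldn4 alone. In that list 7 of 8 loci were at 0 in all 4 libraries. Cldn4 met the rule as higher with docetaxel in efficient tumours and as lower in the inhibited docetaxel library, both against a listed 0. The sums of the fibroblast and endothelial lists were highest in the inhibited docetaxel library instead. The fibroblast list, with 8 of 11 loci at 0 in all 4 libraries, was nearly all Col1a2, a collagen gene, at 369, 515, 371 and 579 FPKM, while Col1a1 did not exceed 0.334. The endothelial list, with 6 of 8 loci at 0, summed to 2.86, 1.85, 0.734 and 3.305 FPKM. Neither of its genes with a value was highest in the inhibited docetaxel library alone. Pecam1 was at 1.96 FPKM both there and in the efficient untreated library. Tek was at 1.34 FPKM there and 1.35 in the efficient docetaxel library. Of 15 macrophage and monocyte loci 12 were at 0 in all 4 libraries, Cd68, Csf1r and Lyz2 among them. The list summed to 0.784, 1.01, 0.437 and 0.584 FPKM. All 7 neutrophil loci and 7 of 9 lymphocyte loci were at 0 in all 4. The lymphocyte list summed to 0.688, 1.57, 0 and 1.03 FPKM. Both sums, though low, were highest in the efficient docetaxel library, through Cd163 at 0.715 FPKM and Cd4 at 1.57, each with a lower bound of 0. Mrc1, another macrophage marker, was at its lowest there, at 0.293 FPKM, and Ptprc and Cd8a were listed at 0 there. Of all 23698 loci, 19773 were at 0 in all 4 libraries. The part of any of these cells in the member values was not tested. In bulk tissue, fewer cells of a type and less RNA per cell cannot be told apart.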

How the data were processed

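RNA of 4 tumours was sequenced on a MiSeq, per the labels, which name depletion of ribosomal RNA and, as another option, mRNA purification. TopHat, Cufflinks and the mouse build mm9 are named in the submitters' processing notes, with versions not given in the sources used here, and no step that separates human from mouse reads is recorded in the labels. The deposited values are FPKM with bounds made by the authors, 1 library per table, in the Cufflinks gene tracking format per the file headers. Loci were matched by symbol and position, and starts were raised by 1. Groups came from the sample titles.

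Differences are of log2(FPKM + 1), which understates those of low genes. Relative depth and whole fragments were derived as described in the report (whole within 0.15, at most 20 for the lowest library). For the 16 values with 5 or more fragments, this number was 0.664 to 1.80 times the one that the width of the bounds gives if read as 2 Poisson standard deviations. For Trp53inp1 at 1 and 3 fragments it was 2.26 and 2.08 times that number. Ratio intervals are exact conditional (Clopper-Pearson) and ratio-of-ratio intervals exact conditional odds ratios, both scaled by depth. No test across conditions was run. An additive model of docetaxel and caspase-3 state would leave 1 residual degree of freedom, which is the difference of the docetaxel differences itself. The members, lists and rules were chosen with earlier results of these data known. Named genes were the members, up to 6 further list genes at 1 FPKM or more by level, up to 6 nearest neighbours above 0 in 3 libraries on each chromosome, and the 3 loci of nearest profile. Other genes are named as checks or because their values were seen. Sequences of the mouse genes were not used here. The rule and the fragment step were tested on simulated data. Alternatives were pseudocounts of 0.1 and 5, other FPKM minimums, median scaling, quantile normalization, no interval, a 3-fold threshold, loci above 0 in both libraries and, chosen after the data were seen, counting intervals, neighbours without microRNA loci and members above 0 in all 4 libraries. Scripts ran in Python 3.11.15 with scipy 1.17.1, pandas 2.3.3, numpy 2.4.6 and, for figures, matplotlib 3.10.9.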

Additional observations from a re-analysis of the deposited data

Results flagged for a closer look

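In 4 of the 6 genes, 1 of them Birc3 by a listed 0, the docetaxel library was at a higher value than the untreated one in caspase-3 efficient tumours and at a lower value in inhibited tumours. Among the 5 genes above 0 in all 4 libraries it was 3, and among all 644 such loci that reached 5 FPKM 17.4% had this pattern. Of those 3 genes, Birc2 and Trp53inp1 reached 5 FPKM only in the efficient docetaxel library. Casp4, at 0.17 in inhibited tumours, joined it at -0.23 after median scaling and -0.20 with quantile normalization. The difference between the states was not tested. The inhibited minus efficient difference of the docetaxel differences was -2.44 on the log2 scale for Trp53inp1, -2.03 for Birc2 and -1.42 for Casp12. For Birc3 it was -2.59, against that listed 0, which gives no level.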

How the results depend on the processing

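The 2 members called higher for docetaxel in efficient tumours became 1 (Trp53inp1) after median scaling and 0 with quantile normalization, a pseudocount of 5 or a minimum of 20 FPKM, and 3 with no interval criterion (Casp12 added). The 1 member called lower in the inhibited docetaxel library, Birc2, became 0 with a pseudocount of 5, a minimum of 20 FPKM or counting intervals (chosen after the data were seen), and 2 with a minimum of 1 FPKM, no minimum (Birc3 added in both) or no interval criterion (Trp53inp1 added). The 2 members past -2 in the difference of the docetaxel differences became 0 with a pseudocount of 5 or quantile normalization, where Birc2 was at -0.995 and -1.97 and Trp53inp1 at -1.05 and -2.56, the last with no library at 5 FPKM. In the other comparisons the count of members called stayed at 0 under every alternative run. Under the other pseudocounts and scalings, 0 of the called member values turned in direction. Counts of all loci, higher and lower, were 54 and 6, 24 and 11, 15 and 20, and 28 and 65 in the order of efficient, inhibited, untreated and docetaxel. They were 80 and 11, 27 and 19, 19 and 34, and 30 and 112 with a minimum of 1 FPKM or none, 24 and 1, 12 and 1, 7 and 5, and 19 and 21 with one of 20, and 141 and 46, 127 and 57, 60 and 82, and 108 and 132 with no interval criterion. With loci above 0 in both libraries they were 34 and 5, 22 and 4, 11 and 12, and 26 and 30, and with a 3-fold threshold 38 and 3, 15 and 9, 11 and 15, and 13 and 54. The cause of these changes was not tested. No fit with a replicate block was run, because each group was 1 library. Depth limits the Birc genes and Trp53inp1 most, at 0 to 5 fragments outside the efficient docetaxel library.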

Other observations

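Mir684-2, a microRNA locus that starts 22.3 kb from Trp53inp1 and was chosen after its values were seen, was listed at 7518.5 FPKM in the efficient docetaxel library and at 0 in the other 3. The deposited upper bound of that value was 121, below the value itself, so it gives no usable level, and it was left out of the plot of neighbouring loci.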
